A study of Arabidopsis thaliana with 15 samples.

Results

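The dehydrins of Arabidopsis thaliana were followed in the seedling transcriptome by their locus codes. Of 10 loci named, 9 had a row among 22526 genes: RAB18 (AT5G66400), ERD10 (AT1G20450), COR47 (AT1G20440), ERD14 (AT1G76180), LTI30 (AT3G50970, also XERO2), XERO1 (AT3G50980), HIRD11 (AT1G54410), AT2G21490 and AT4G38410. The other locus, AT4G39130, was not analysed here for its level.

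Dehydrins are hydrophilic proteins that stay largely unfolded in water and share a lysine-rich stretch, the K-segment, which can fold into a helix on membranes. Many also carry a run of serines that the kinase CK2 can phosphorylate, and some a Y-segment near the amino end. Plants accumulate them in drying seeds and in vegetative tissue under drought, cold or abscisic acid (ABA, a hormone made when water is short), and they are thought to protect membranes and enzymes. Their genes are commonly bound by bZIP factors at the ABA-responsive element (ABRE) and by CBF and DREB factors at the dehydration-responsive element (DRE).

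All plants were wild-type Col-0 seedlings aged 14 days, moved for their last day from agar to liquid MS medium with sucrose. They were harvested untreated (control), with 20 µM ABA added for 1 h or 3 h, or after lying on filter paper out of the medium for 1 h or 3 h (dehydration). The series has 15 libraries, 3 per condition, made from polyadenylated RNA with a stranded kit, and the tables give a single combined column for each of the 5 conditions.

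Because replicates are combined, differences between conditions have no replicate check and could not be tested. Ratios carry exact 95% bounds for counting error alone. The control was taken before treatment, so treatment cannot be told apart from elapsed time and handling. The ABA stock was made in methanol, and the labels name no solvent control. Libraries of a condition also shared a sequencing pool, so pool and condition cannot be told apart. In whole seedlings, a change in RNA per cell and a change in the number of expressing cells cannot be told apart either.

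Column totals ran from 163762670 to 204315702 reads. Levels comparable between genes are given as FPKM, which corrects for transcript length and library size. The 4 green tissue markers with a row stood between 981 and 4762 FPKM, and their median log2 ratio to the control was −0.64 and −1.02 at 1 h and 3 h of ABA and −0.85 and −0.76 at 1 h and 3 h of dehydration. All 6 root markers were detected in every column, at 0.528 to 23.0 FPKM. The 6 seed markers with a row lay between 0 and 0.942 FPKM, with SESA2 at 0 reads in the control and CRU3 at 0 reads at 1 h of dehydration. Summed over those 6, they reached 0.130 CPM (reads scaled to library size) in the control, 0.744 and 0.516 in the ABA columns and 0.285 and 3.11 in the dehydration columns. The part of these tissues in the results was not tested. The 7 reference genes had log2 ratios to the control between −0.28 and 0.56.

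In RefSeq's annotation of TAIR10.1 the family lies on all 5 chromosomes. COR47 and ERD10 are neighbours on the same strand of chromosome 1, 1029 bases apart, and LTI30 and XERO1 are neighbours on the same strand of chromosome 3, 313 bases apart. ERD14 and HIRD11 are also on chromosome 1, AT2G21490 on chromosome 2, AT4G38410 and AT4G39130 on chromosome 4 and RAB18 on chromosome 5. Coding lengths ran from 297 bases in HIRD11 to 798 in COR47. LTI30 has 1 annotated exon, and the longest transcript of each of the others has 2.

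Promoter stretches are shown because both elements named above are read from sequence and the members differ in which of them they hold. The 500 bases before each annotated gene start were searched on both strands for the ABRE core ACGTG and the DRE core CCGAC. Each core was counted separately, and matches of the same core that overlap, as on both strands of CACGTG, were counted once. Of 10 loci, 8 held an ABRE core and 5 held at least 2, where 35.5% and 10.1% of 27443 promoters did. A DRE core was found in 4 of 10 loci and at least 2 in 2 of them, where 21.4% and 3.68% of promoters held as many. RAB18 held 3 ABRE cores, a number that 2.70% of promoters reach, and LTI30 held 3 DRE cores, which 0.667% reach. LTI30 and COR47 had no ABRE core in this window, which says only that these letters are not in it. The windows are not all intergenic. Those of LTI30, XERO1, AT2G21490, AT4G38410 and AT4G39130 reach into the gene before them, which ends or starts 120 to 313 bases away, and that of RAB18 runs into PLP3b, which overlaps its start. All 4 matches of RAB18, including its DRE core, lie inside the annotated PLP3b gene, and 1 match each of AT4G38410 and AT4G39130 lies inside a neighbour. The annotated COR47 transcript has 2320 bases around a coding length of 798. The side on which the other bases lie was not examined, so its window may lie far from the coding start. Selected matches are given along the gene's own strand in TAIR10.1, with the core in capitals (CACGT or GTCGG where it lies on the other strand) and the distance of its first base to the gene start.
RAB18, ABRE core 111 bases before the start, inside PLP3b: gaggagcattACGTGtcctgttagc
ERD10, ABRE core 412 bases before the start: atttattttcACGTGgcatgatggc
XERO1, ABRE core 61 bases before the start: cgtaatcgccACGTGtgtcacttca
AT4G38410, ABRE core 9 bases before the start: ttattggataACGTGgacc
COR47, DRE core 368 bases before the start: ggtatcatgtGTCGGtagagtgacc
LTI30, DRE core 101 bases before the start: ttaaaattacGTCGGtcgctaacca
LTI30, DRE core 78 bases before the start: cactactacaCCGACgtcttacttg
These matches describe sequence, and binding was not measured.

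The dehydrins together took 0.0805% (0.0800 to 0.0809) of all reads in the control. Under ABA their share was 0.316% (0.315 to 0.317) at 1 h and 0.914% (0.913 to 0.915) at 3 h, which is 3.93-fold and 11.4-fold the control's. Under dehydration it was 0.327% (0.326 to 0.328) at 1 h and 0.774% (0.773 to 0.775) at 3 h, or 4.06-fold and 9.62-fold. Both treatments thus gave a similar share at 1 h, and at 3 h the ABA column was the higher. The total at 3 h of ABA holds no reads of RD29A, whose count is missing there, and the share was not corrected for this. Summed per length, the family stood at 1029.8 FPKM in the control, 3109 and 9174 in the ABA columns and 3038 and 7808 in the dehydration columns.

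The make-up of this pool differed as well. In the control HIRD11, a small histidine-rich dehydrin that binds metal ions, gave 46.7% of the summed FPKM, followed by ERD14 at 26.8%, COR47 at 17.6% and ERD10 at 6.75%. At 3 h of ABA COR47 led with 34.4%, ahead of ERD10 at 20.1%, ERD14 at 20.0%, LTI30 at 12.5% and HIRD11 at 8.68%. At 3 h of dehydration the order was COR47 at 29.9%, ERD10 at 24.5%, ERD14 at 20.7%, HIRD11 at 14.4% and LTI30 at 9.27%. RAB18, often used as a reporter of ABA, gave 4.22% of the pool at 3 h of ABA and 0.574% at 3 h of dehydration.

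**Figure D1:**
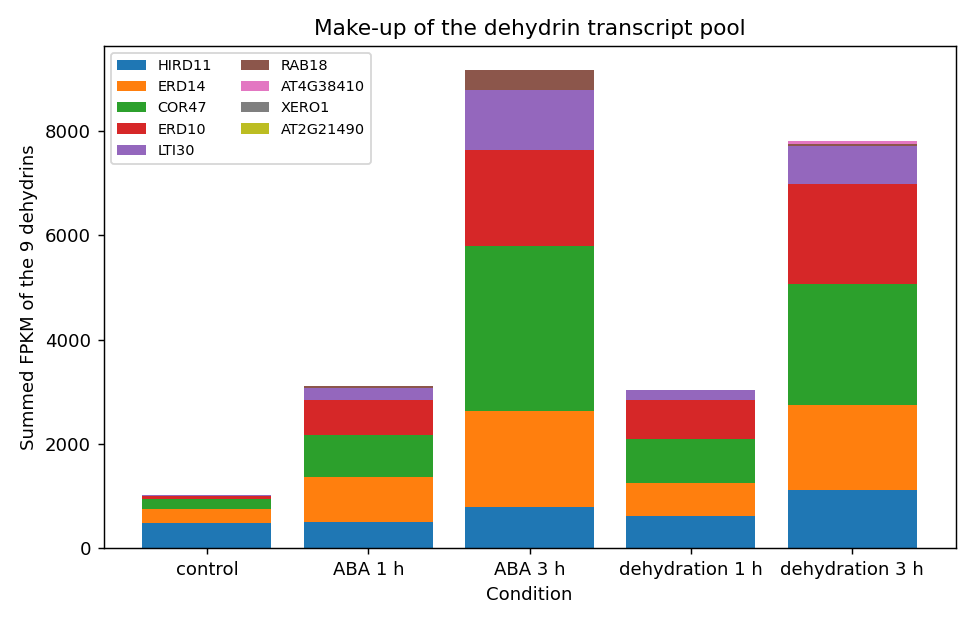
Stacked bars give the summed FPKM of the 9 dehydrins (vertical axis, from 0) in each of the 5 conditions, split by gene. The total is 1029.8 in the control and 9174 at 3 h of ABA, and HIRD11, the largest block in the control, is 8.68% of the latter bar.

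Of the 9 genes, 7 had a mean of at least 1 CPM over the 5 columns, as did 18876 genes in all, and these are called measured. XERO1 and AT2G21490 lay below that mean. At 1 h of ABA 5 of the 7 were at least 2-fold above the control, where 4.54% of all measured genes were, and 0 were 2-fold below it, where 5.13% were. By 3 h of ABA the counts were again 5 above, against 9.12%, and 0 below, against 7.79%. At 1 h of dehydration 4 of 7 were above, against 7.73%, and 0 below, against 5.62%. By 3 h of dehydration 7 of 7 were above, against 10.5%, and 0 below, against 6.49%. With XERO1 and AT2G21490 included, 7, 7, 5 and 8 of 9 were above, against 5.96%, 10.4%, 10.3% and 13.7% of genes without the limit on mean CPM. The count at 1 h of ABA includes AT2G21490 on 6 reads against 1, with bounds of 0.774-fold to 293-fold. The median log2 ratio of the 7 was 2.20, 4.21, 1.23 and 3.68 in this order, and that of all measured genes lay between −0.022 and 0.016. All 4 comparisons share the control column.

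**Figure D2:**
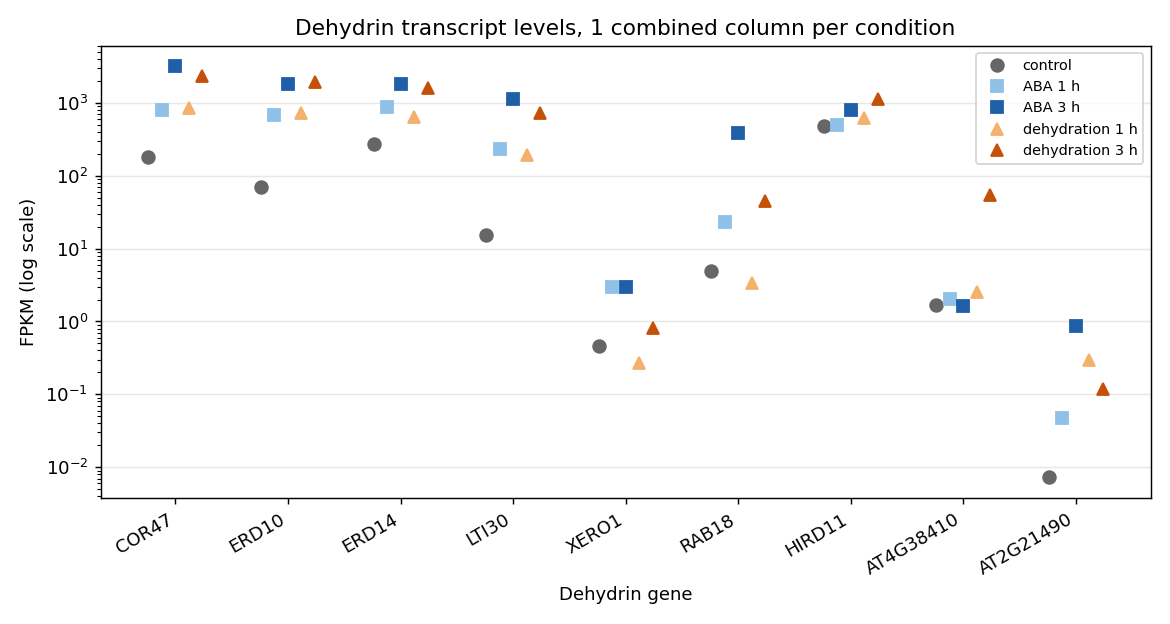
Points give the FPKM (log axis) of each dehydrin in the 5 conditions, 1 combined value per condition and therefore without error bars. COR47, ERD10, ERD14, LTI30 and HIRD11 are at 724 FPKM or more in both columns at 3 h, while XERO1 does not pass 3.01 and AT2G21490 does not pass 0.863 in any column.

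COR47, ERD10 and ERD14 are acidic dehydrins with a serine stretch and K-segments. ERD10 and ERD14 can act as chaperones in vitro, and COR47 is named for its response to cold. COR47 stood at 181 FPKM in the control, at 805 and 3158 in the ABA columns (1 h, 3 h) and at 843 and 2332 in the dehydration columns (1 h, 3 h). From rank 939 among all genes in the control it came to rank 5 at 3 h of ABA and rank 10 at 3 h of dehydration. Its ratio to the control was 4.59-fold (4.54 to 4.64) and 18.5-fold (18.3 to 18.7) under ABA, and 4.72-fold (4.67 to 4.78) and 12.8-fold (12.7 to 13.0) under dehydration. Both treatments were level at 1 h, and ABA was the higher at 3 h.

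ERD10 stood at 69.5 FPKM in the control, at 671 and 1843 in the ABA columns and at 736 and 1909.7 in the dehydration columns. It was 9.75-fold (9.60 to 9.90) and 27.9-fold (27.5 to 28.4) above the control under ABA, and 10.9-fold (10.7 to 11.1) and 27.1-fold (26.7 to 27.5) under dehydration. Of the 9 genes it differed least between the treatments at 3 h, with a log2 ratio of dehydration to ABA of −0.0448 (−0.050 to −0.039). The sign of this difference turned with total-count scaling, at 0.0207, and on the FPKM scales.

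ERD14 stood at 276 FPKM in the control, at 874 and 1838 in the ABA columns and at 641 and 1617 in the dehydration columns. It started above COR47 and ERD10 and had the lower ratios, 3.28-fold (3.24 to 3.32) and 7.10-fold (7.03 to 7.18) under ABA and 2.35-fold (2.32 to 2.37) and 5.88-fold (5.82 to 5.95) under dehydration. At 1 h of ABA it was the most abundant dehydrin per length, and in the other 3 treated columns COR47 was. Whether such neighbours in the order differ beyond the spread of replicates is not known from single values.

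The tandem neighbours COR47 and ERD10 were closer in level in every treated column than in the control. COR47 was 2.60 times as abundant as ERD10 by FPKM in the control, 1.20 and 1.71 times in the ABA columns and 1.15 and 1.22 times in the dehydration columns. They are close paralogs, so reads from stretches they share could have been split between them. The next gene beyond COR47, AT1G20430, lies 498 bases away on the same strand and ran from 48.4 to 77.2 FPKM.

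LTI30 is a basic dehydrin made mainly of K-segments that binds acidic membrane lipids. It stood at 15.6 FPKM in the control, at 235 and 1147 in the ABA columns and at 192 and 724 in the dehydration columns. At 1 h it had the highest ratio among the 7 measured members in both treatments, 15.2-fold (14.5 to 15.9) under ABA and 12.7-fold (12.1 to 13.3) under dehydration. At 3 h it was 74.3-fold (70.9 to 77.8) above the control under ABA, rank 60 of 18872 genes, and 46.3-fold (44.2 to 48.5) under dehydration, rank 79 of 18875.

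XERO1, its neighbour, rested on few reads: 40 in the control, 241 and 287 in the ABA columns and 25 and 70 in the dehydration columns, or 0.468, 2.94, 3.01, 0.268 and 0.813 FPKM. The ABA columns were the highest, with ratios to the control of 6.40-fold (4.57 to 9.19) at 1 h and 6.55-fold (4.70 to 9.37) at 3 h. Under dehydration it was 1.71-fold lower at 1 h, a log2 ratio of −0.78 (−1.56 to −0.021), and 1.74-fold (1.16 to 2.63) higher at 3 h.

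LTI30 was 33.3 times as abundant as XERO1 by FPKM in the control, 79.8 and 381 times in the ABA columns and 716 and 890.1 times in the dehydration columns. Between 1 h and 3 h of ABA LTI30 was 4.90-fold (4.84 to 4.96) higher, while XERO1 had a log2 ratio of 0.033 (−0.22 to 0.29). On the other side of LTI30, PLP3a (AT3G50960) runs in the opposite direction from 214 bases away and stood between 6.27 and 8.36 FPKM.

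RAB18, a dehydrin with Y-segments, a serine stretch and K-segments, is named for its response to ABA. It stood at 4.88 FPKM in the control, at 23.4 and 387 in the ABA columns and at 3.39 and 44.8 in the dehydration columns. The 3 h ABA column was the highest and 1 h of dehydration the lowest, below the control, with a log2 ratio of −0.49 (−0.66 to −0.32). After 3 h of ABA it was 81.1-fold (75.1 to 87.6) above the control, the highest ratio among the measured members there. The 3 h dehydration column was 9.14-fold (8.43 to 9.92) above.

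RAB18 was lower under dehydration than under ABA at both times. It was 6.88-fold lower at 1 h, a log2 ratio of −2.78 (−2.92 to −2.65), rank 50 from the lowest of 18875 genes. At 3 h it was 8.87-fold lower, a log2 ratio of −3.15 (−3.19 to −3.11), rank 101 from the lowest. Between the times it was 12.9-fold (11.7 to 14.1) higher at 3 h under dehydration, rank 40 of 18875, beside 16.6-fold (16.0 to 17.2) under ABA, rank 23 of 18874. RAB18 overlaps PLP3b (AT5G66410) on the opposite strand by 11 bases. The strand setting of the counting is not stated, so reads from the overlap cannot be told apart. PLP3b stood between 32.7 and 35.4 FPKM, with 4701 to 5830 reads a column, and its part in the reads of RAB18 was not tested.

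HIRD11 had the smallest range of the 9 genes, with its highest level 2.34 times its lowest by FPKM. It stood at 481 FPKM in the control, at 496 and 797 in the ABA columns and at 618 and 1126 in the dehydration columns. Its log2 ratio to the control was 0.094 (0.076 to 0.112) and 0.83 (0.82 to 0.85) under ABA, and 0.40 (0.38 to 0.41) and 1.22 (1.21 to 1.24) under dehydration. The 3 h dehydration column alone passed 2-fold, and it was 1.31-fold (1.30 to 1.32) above 3 h of ABA.

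AT4G38410, annotated as a dehydrin family protein, was high in a single column. It stood at 1.70 FPKM in the control, at 2.03 and 1.63 in the ABA columns, at 2.56 at 1 h of dehydration and at 54.0 at 3 h of dehydration. That column held 4918 reads, and the others 154 to 252. The 3 h dehydration column was 31.7-fold (27.0 to 37.4) above the control, 20.7-fold (18.3 to 23.6) above 1 h of dehydration, rank 19 of 18875 genes, and 31.2-fold (26.8 to 36.6) above 3 h of ABA. At 3 h of ABA its log2 ratio to the control was 0.020 (−0.30 to 0.34).

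The genes beside AT4G38410 did not share this pattern. AT4G38405, 120 bases before its start on the other strand, is listed at 0 reads in all 5 columns. On the far side sks9 (AT4G38420), 849 bases away on the same strand, stood at 25.3 FPKM in the control and 11.7 at 3 h of dehydration.

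AT2G21490, annotated as a dehydrin of the LEA proteins, was barely detected, with 1 read in the control, 6 and 130 in the ABA columns and 45 and 16 in the dehydration columns. Its highest level was 0.863 FPKM, at 3 h of ABA. Its ratio to the control there was 119-fold with bounds of 20.9 and 4725, set by the single control read. Between 1 h and 3 h it was 18.6-fold (8.33 to 51.7) higher under ABA, and 2.65-fold lower under dehydration, a log2 ratio of −1.40 (−2.33 to −0.55). AT2G21500, 306 bases before it on the same strand, ran from 5.98 FPKM at 3 h of ABA to 22.3 at 1 h of dehydration, and its part in these few reads was not tested.

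**Figure D3:**
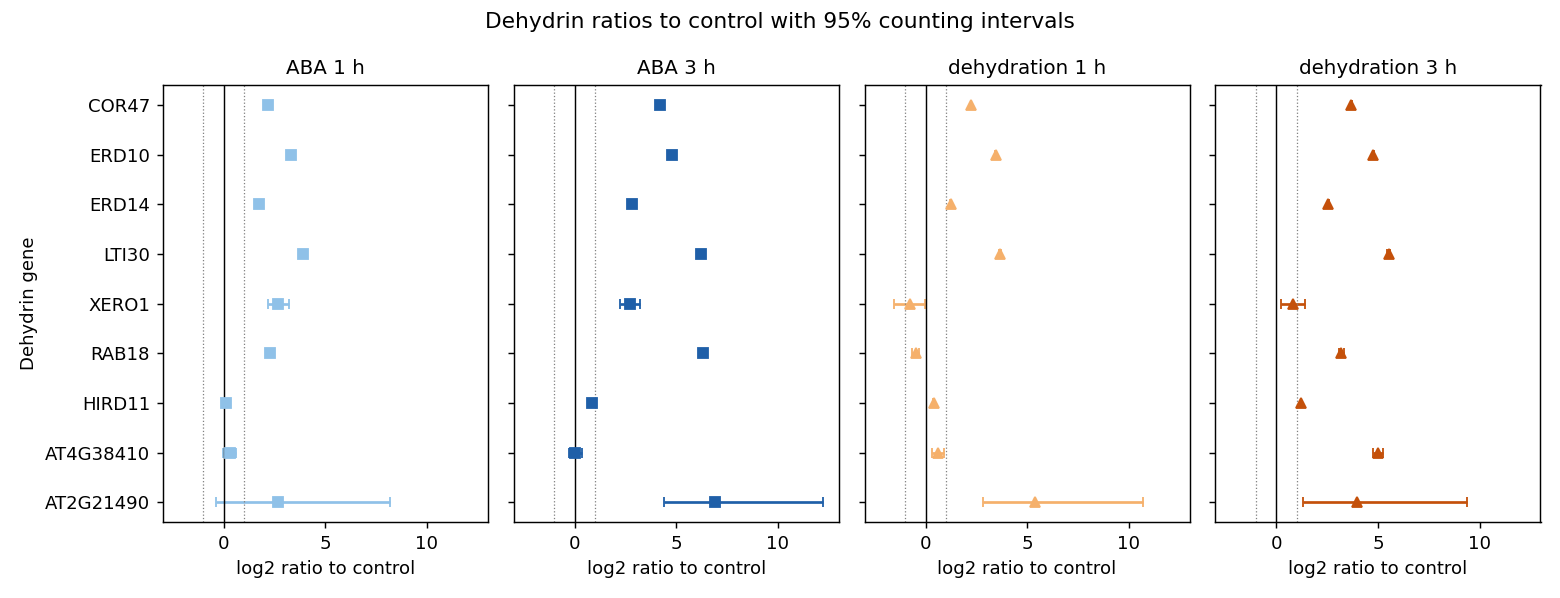
Each panel gives the log2 ratio to the control (horizontal axis) of the 9 dehydrins in 1 treated condition, with exact 95% counting intervals, and dotted lines mark 2-fold. LTI30 and RAB18 reach 6.21 and 6.34 at 3 h of ABA, AT4G38410 passes 2-fold at 3 h of dehydration alone, at 4.99, and the wide intervals of AT2G21490 rest on 1 control read.

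Between the times, 5 of 7 measured members were at least 2-fold higher at 3 h than at 1 h of ABA, where 4.92% of all genes were, and 0 were lower, against 2.39%. Under dehydration 6 of 7 were higher at 3 h, against 5.34%, and 0 lower, against 1.48%. The medians were 1.52 and 1.44 on the log2 scale, and those of all genes 0.00566 and −0.015. COR47 was 4.02-fold (4.001 to 4.05) higher at 3 h under ABA and 2.72-fold (2.70 to 2.73) under dehydration. ERD10 was 2.87-fold (2.85 to 2.88) and 2.49-fold (2.48 to 2.50) higher, and ERD14 2.16-fold (2.15 to 2.18) and 2.51-fold (2.49 to 2.53). HIRD11 was 1.67-fold (1.65 to 1.69) and 1.77-fold (1.75 to 1.79) higher, short of 2-fold in both. As a log2 difference between treatments, the step was larger under dehydration by 4.65 in AT4G38410, 1.54 in XERO1 and 0.21 in ERD14. It was smaller under dehydration in COR47, at −0.57, LTI30, at −0.42, RAB18, at −0.37, and ERD10, at −0.20. The largest difference was that of AT2G21490, at −5.62 on 6 to 130 reads a column.

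Set against ABA at the same time, dehydration gave levels within 2-fold for most measured members, as it did for most measured genes. At 1 h 0 of 7 were 2-fold higher under dehydration, where 5.4% of all genes were, and 1, RAB18, was lower, where 3.5% were. At 3 h 1 was higher, AT4G38410, against 9.15%, and 1 lower, RAB18, against 6.82%. The medians were 0.0411 and −0.27, and those of all genes −0.0067 and −0.022. COR47 had log2 ratios of 0.0411 (0.031 to 0.051) at 1 h, which turned to −0.00186 with upper-quartile scaling, and −0.53 (−0.53 to −0.52) at 3 h. LTI30 had −0.26 (−0.29 to −0.24) and −0.68 (−0.69 to −0.67), and ERD14 −0.48 (−0.50 to −0.47) and −0.27 (−0.28 to −0.26). Among the low genes XERO1 was 10.97-fold lower under dehydration at 1 h and 3.77-fold lower at 3 h.

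**Figure D4:**
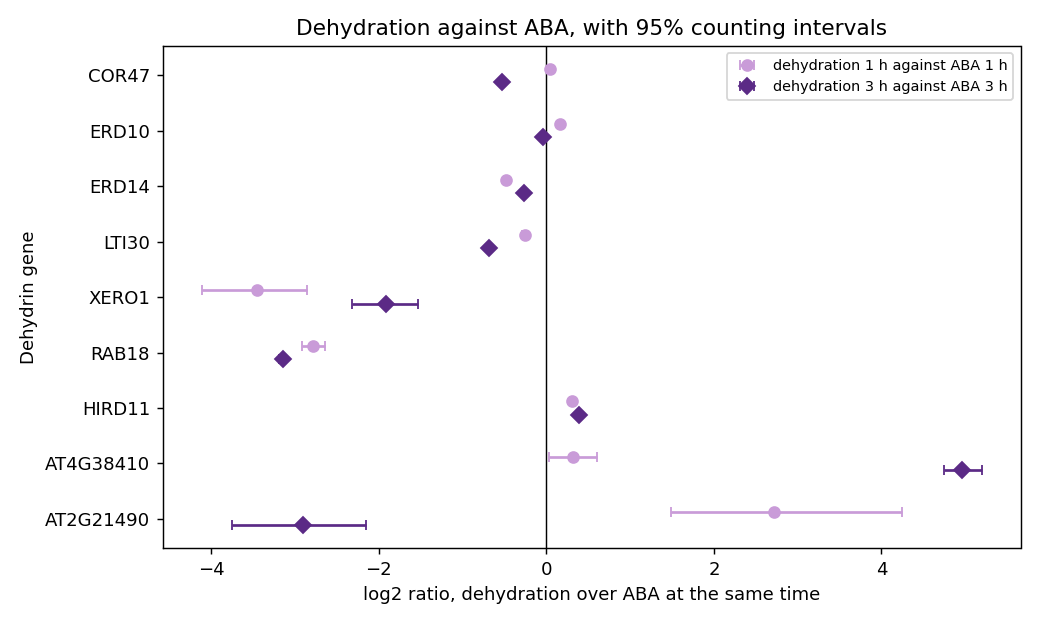
Points give the log2 ratio of dehydration to ABA at 1 h and at 3 h for each dehydrin, with exact 95% counting intervals. RAB18 and XERO1 lie left of 0 at both times, AT4G38410 stands at 4.97 at 3 h, and COR47, ERD10, ERD14, LTI30 and HIRD11 lie between −0.68 and 0.39.

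Profiles over the 5 columns were compared by the root mean square (RMS) difference in log2 CPM after each gene was centred on its own mean, a measure that scaling of the columns does not alter. Within the family COR47 and ERD10 were each other's nearest measured member, at an RMS difference of 0.45, and LTI30 was nearest to ERD10, at 0.49. ERD14 was nearest to COR47, at 0.49. AT4G38410 and RAB18 were the farthest apart, at 2.92. For RAB18 the nearest member, COR47 at 1.55, ranked 215 among 18874 genes in likeness to it. The nearest members of LTI30, ERD10, COR47 and ERD14 ranked 6, 7, 19 and 228. For AT4G38410 the nearest was HIRD11 at 1.59, rank 1177, and for HIRD11 it was ERD14 at 0.69, rank 14720.

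Outside the family, the gene most like ERD10 was ABI5 (AT2G36270), a bZIP factor that binds the ABRE, at an RMS difference of 0.23. ABI5 stood at 0.480 CPM in the control, at 6.50 and 14.0 in the ABA columns and at 4.38 and 13.4 in the dehydration columns. The next were AT3G27025, of unknown function, at 0.29 and the transporter gene AT3G52310 at 0.41. Both were low, with highest levels of 3.04 and 6.18 CPM. LTI30 was most like AT5G17460, of unknown function, at 0.30, the cold-regulated gene KIN2 (AT5G15970) at 0.36 and the caleosin gene RD20 (AT2G33380) at 0.43.

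RAB18 was most like the heat shock factor gene HSFA6A (AT5G43840) at 0.38. HSFA6A was low, at 0.164 CPM in the control and 0.0897 at 1 h of dehydration. Next came the amino acid transporter family gene AT2G41190 at 0.52 and AT2G37870, of the lipid transfer protein superfamily, at 0.57. AT2G41190 stood at 7.03 CPM in the control, 726 at 3 h of ABA and 133 at 3 h of dehydration. AT4G38410 was most like the aquaporin gene RD28 (AT2G37180) at 0.50, WOX5 (AT3G11260), a homeobox gene of the root stem cell niche, at 0.52 and AT5G59760, of unknown function, at 0.56. RD28 stood at 97.9 CPM in the control, 52.7 at 3 h of ABA and 1130.0 at 3 h of dehydration. In the same columns WOX5 stood at 0.277, 0.470 and 12.2 CPM. AT5G59760 was also low in the control, at 0.254 CPM. WOX5 is also 1 of the 6 root markers. At 3 h of dehydration it was 44.0-fold above the control, while the median log2 ratio of the 6 was −0.88, and their part in the level of AT4G38410 was not tested.

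COR47 was most like AT5G22540 at 0.20, the glutamate receptor family gene ATGLR1.2 (AT5G48400) at 0.20 and MEE25 (AT2G34850) at 0.24, all of them low, with a highest level of 6.82 CPM. ERD14 was most like KCS3 (AT1G07720), annotated as a ketoacyl-CoA synthase, at 0.14, AT4G30470 at 0.15 and the isoamylase gene ATISA3 (AT4G09020) at 0.15. HIRD11 was most like AT5G18540 at 0.047, AT2G16660 at 0.078 and the clock gene PCL1 (AT3G46640) at 0.083.

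**Figure D5:**
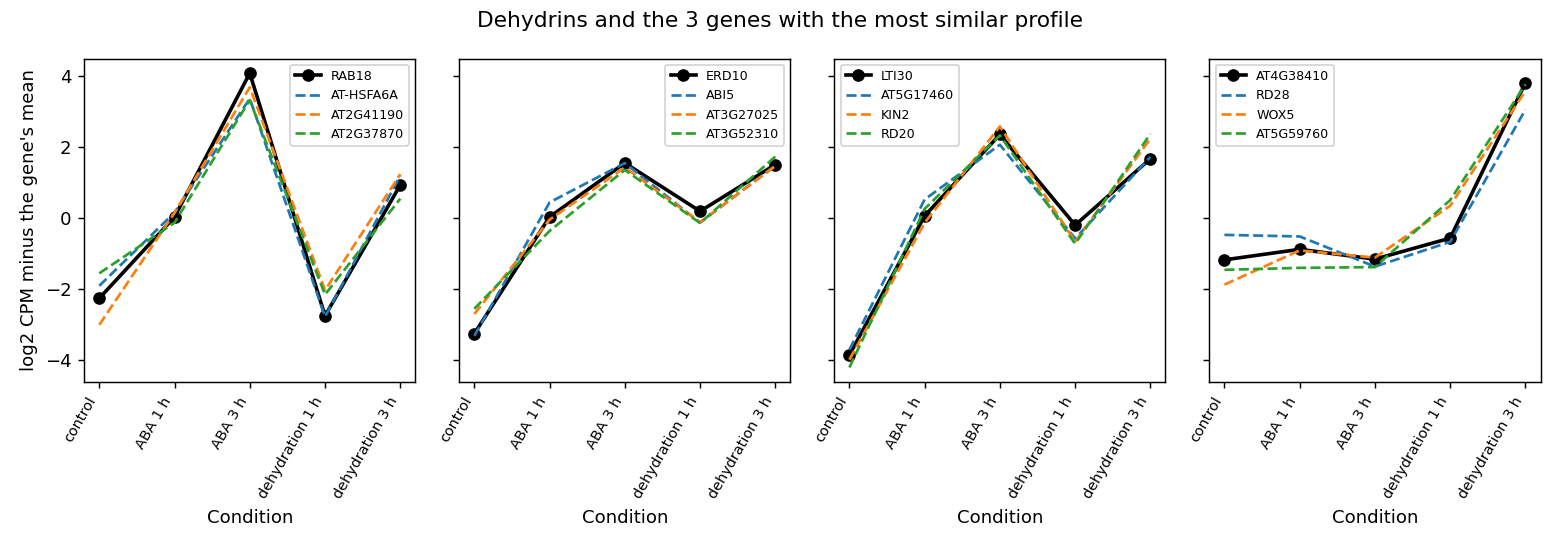
Lines give log2 CPM minus the gene's own mean (vertical axis) over the 5 conditions for RAB18, ERD10, LTI30 and AT4G38410 (black) and for the 3 genes outside the family with the smallest RMS difference (dashed). RAB18 peaks at 3 h of ABA, ERD10 is about level in both 3 h columns, and AT4G38410 is high at 3 h of dehydration alone.

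Genes that may regulate or accompany the dehydrins were taken from lists and read against the shares of all genes given above. Regulation was not measured. All 5 ABRE-binding bZIP factors were measured, and 4 were at least 2-fold above the control at both times of ABA, with medians of 2.24 and 2.73. Under dehydration 3 of 5 were at 1 h and 4 at 3 h, with medians of 1.23 and 2.59, and 0 were 2-fold below the control in any of these columns. ABI5 had the highest ratio each time, 13.5-fold and 29.2-fold under ABA and 9.12-fold and 27.9-fold under dehydration. ABF4 had the lowest, with log2 ratios between 0.10 and 0.62. Against ABA at the same time, 2 of 5 were 2-fold lower under dehydration at 1 h, with ABF3 3.13-fold lower, and 0 were 2-fold apart at 3 h.

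Of the 7 CBF and DREB2 factors, 6 were at least 2-fold above the control at 1 h of ABA and 7 at 3 h, with medians of 3.22 and 3.12. Under dehydration 7 were above at both times, with medians of 4.30 and 5.63. In the control CBF1, CBF3 and CBF4 had only 10, 7 and 3 reads. They met the limit on mean CPM through treated columns, and their ratios to the control rest on those few reads. Against ABA, 5 of 7 were 2-fold higher under dehydration at each time, with medians of 1.09 and 2.11. CBF1 led both, at 3.52-fold and 11.2-fold. CBF1, CBF2 and CBF3 are close paralogs whose reads could be split. The seed maturation regulators ABI3, FUS3 and LEC2 lay between 0.00730 and 0.116 FPKM.

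All 8 cold-regulated COR genes were at least 2-fold above the control at 1 h of ABA, with a median of 4.43, and at both times of dehydration, with medians of 2.77 and 6.46. At 3 h of ABA 7 of 7 were, with a median of 6.57, the count of RD29A being missing there. COR15B was 5.39-fold higher at 3 h of dehydration than at 3 h of ABA, and RD29B was 19.0-fold lower.

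Other LEA genes encode protective proteins outside the dehydrin family, and 10 of 12 were measured. Some met the limit on mean CPM only through treated columns, so the counts and medians below partly reflect that limit. In the control AT3G17520, ECP63 and EM6 had 5, 6 and 15 reads. RAB28 and M17 did not meet the limit, with 52 and 75 reads there. RAB28 had 78 and 115 reads in the ABA columns and 54 and 52 in the dehydration columns. M17 had 55 and 27 under ABA and 58 and 96 under dehydration. Under ABA 9 of 10 were at least 2-fold above the control at both times, with medians of 5.28 and 8.69, and under dehydration 8 were at 1 h and 9 at 3 h, with medians of 1.88 and 5.76. SAG21 was the exception at both times of ABA, at −0.79 and −0.31. Against ABA, 8 of 10 were 2-fold lower under dehydration at 1 h and 7 at 3 h, with medians of −3.13 and −2.77. LEA14 had the highest of these log2 ratios, 0.63 and 0.67, and AT3G17520 the lowest, at 40.5-fold and 47.0-fold lower. With ratios of FPKM + 1, 2 of these LEA genes in place of 8 were 2-fold apart from the control at 1 h of dehydration.

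Of the 4 catalytic subunits of CK2, 0 were 2-fold apart from the untreated column in the 4 treated ones, with log2 ratios between −0.49 and 0.25. Most measured genes were not 2-fold apart there either, with 4.54% to 10.5% above the control and 5.13% to 7.79% below it.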

How the data were processed

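Single reads came from stranded libraries of polyadenylated RNA, per the labels' protocols. The submitters' processing notes list TopHat2 2.0.8, Cufflinks 2.1.1, Cuffdiff, DESeq2 and TAIR10. Not given in the sources used here are the tool that counted reads, its strand setting and how replicates were merged. Raw read counts and FPKM values per gene were deposited by the authors, 1 column per condition, per the file headers. The test across replicates written into the design could therefore not be run.

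CPM used TMM factors (edgeR 4.0.16, R 4.3.3) from the 22186 rows kept by filterByExpr. Counts under 3 were raised to 3 before genes were counted as 2-fold apart, and no ratio was formed where both were at or under 3. Bounds are exact conditional binomial (Clopper-Pearson, SciPy 1.17.1) on the deposited counts. Ratios printed for AT2G21490 use its reads as they are. A count of 0 for RD29A at 3 h of ABA beside an FPKM of 3959.9 was treated as missing in CPM and ratios. Column totals and TMM factors used the deposited 0. Ratios and bounds were tested on simulated counts that held counting error alone, with no spread between replicates. The genes scored there had more control reads than XERO1, AT2G21490 or AT4G38410.

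The members and gene lists were chosen with earlier results of these data known. Named genes are all members, the 3 genes outside the family most like each measured member, and the highest and lowest of each list in a comparison, of which not all are printed. Genes beside a member on the chromosome, SESA2 and CRU3, RAB28 and M17, and the seed maturation regulators were named outside this rule, after their values were seen. ABI5, KIN2 and WOX5 fall under both a list and a likeness. All 77 loci of members and lists were found in RefSeq's TAIR10.1 annotation, 75 of them under the name used. That build differs from the authors', so it served for names, gene order and promoter windows, and no coordinates are given. Other scalings, filters on low counts, log2 FPKM scales and fold limits were tried as alternatives.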

Additional observations from a re-analysis of the deposited data

Results flagged for a closer look

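Some dehydrins moved in opposite directions in a pair of comparisons, with both ratios outside counting error. Each condition is a single combined column, so none of these differences was tested. RAB18 had a log2 ratio to the control of 2.29 at 1 h of ABA and −0.49 at 1 h of dehydration. XERO1 had 2.68 and −0.78, on 241 and 25 reads against 40. For AT2G21490 the log2 ratio of 3 h to 1 h was 4.22 under ABA and −1.40 under dehydration, and its ratio of dehydration to ABA was 2.72 at 1 h and −2.90 at 3 h, on 6 to 130 reads a column. ERD10 had a log2 ratio of dehydration to ABA of 0.16 at 1 h and −0.0448 at 3 h, and COR47 of 0.0411 and −0.53. The ERD10 value at 3 h and the COR47 value at 1 h change sign with the scaling.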

How the results depend on the processing

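No paired analysis was possible because the tables hold 1 combined column per condition, and DESeq2 and leaving out replicates were not run for the same reason. The number of dehydrins 2-fold apart stayed within 1.5 times its value in 74 of 80 recomputations. Not all of these could differ, since a limit of 5 on mean CPM keeps the same 7 members and the same ratios. No filter and filterByExpr both admit XERO1 and AT2G21490 and gave the same counts as each other. There the number was 3 in place of 1 for dehydration against ABA at 1 h and 4 in place of 2 at 3 h. With a 4-fold limit it was 3 in place of 5 for 3 h against 1 h of ABA and 2 in place of 6 for 3 h against 1 h of dehydration. Of 360 recomputed log2 ratios, 188 stayed within the counting bounds, 168 moved outside them with the same sign and 4 moved outside with the sign changed. The bounds thus do not cover the choice of scaling or scale. In all, 10 of the 360 changed sign. Of these, 6 belong to ratios whose bounds include 0: AT4G38410 for 3 h of ABA against the control under upper-quartile and total-count scaling and both FPKM scales, at −0.079 to −0.028, and XERO1 for 3 h against 1 h of ABA under upper-quartile and total-count scaling, at −0.065 and −0.067. The other 4 are small ratios of abundant genes. COR47 for dehydration against ABA at 1 h was −0.00186 with upper-quartile scaling, and ERD10 for the same at 3 h was 0.0207 with total-count scaling, 0.0514 on log2(FPKM + 1) and 0.0515 on log2(FPKM + 0.1). Total-count scaling moved the median of all genes to 0.11 for 1 h of dehydration against the control and to −0.12 for 3 h against 1 h of dehydration. Among measured members the scalings moved a ratio by at most 0.12, and log2(FPKM + 1) by at most 0.64. List counts, recomputed as alternatives chosen after seeing the data, stayed within 1.5 times in 73 of 80 (bZIP factors) to 80 of 80 (CK2). XERO1 and AT2G21490 had at most 287 and 130 reads in a column, which limits their ratios.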
